A study of Homo sapiens with 6 samples.

Results

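Respiratory complex I is described here through the mRNAs of 53 genes, 46 encoded in the nucleus and 7 in mitochondrial DNA, in Huh7 cells given the compound 16'-DEC or its vehicle. The members were chosen with earlier results of these data known, by a rule on symbols that used no values and left out pseudogenes. Members were the rows of the deposited table named NDUFA, NDUFB, NDUFC, NDUFS, NDUFV or NDUFAF plus a number, NDUFAB1, and MT-ND1 to MT-ND6 with MT-ND4L. They are 53 of the 78304 genes in the table, no symbol was repeated, and all 53 passed the filter of a mean of at least 1 TPM, a length-corrected share of the library's transcripts, that left 14275 genes to test. Huh7 is an established human hepatocellular carcinoma line, labelled here as wild type in both groups. The cells were seeded for 24 h and then exposed for 24 h to DMSO, the solvent control (3 libraries), or to 16'-DEC (3 libraries). The dose of 16'-DEC and its structure are not in the labels, and the labels do not say whether the 3 libraries of a group were separate cultures, so the p-values measure the spread between these libraries. The series asks how 16'-DEC acts against hepatocellular carcinoma cells.

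Complex I, NADH:ubiquinone oxidoreductase, is the large entry enzyme of the mitochondrial respiratory chain. Its matrix arm takes electrons from NADH (the N module) and hands them through iron-sulfur clusters to ubiquinone (the Q module), and its membrane arm pumps protons. The core subunits that carry out these steps are shared with bacteria, the supernumerary subunits surround and stabilise them, and assembly factors build the enzyme without staying in it. The most hydrophobic core subunits are made inside mitochondria from transcripts of mitochondrial DNA, and all the others are imported from the cytosol.

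The 6 libraries separated by treatment. On log2(TPM + 1), Pearson's r was at least 0.982 for a pair of libraries of the same group and at most 0.922 for a pair of different groups. TPM keeps no read depth, so the depth behind each value is unknown. The summed level of 9 hepatocyte and hepatoma markers was 12780 to 12920 TPM with DMSO and 12870 to 13120 TPM with 16'-DEC, but single markers moved both ways, with means for AFP of 2721 and 965 TPM, APOB 627 and 196 TPM, KRT8 970.2 and 1880 TPM, and APOA1 729 and 1203 TPM. Of 11 markers of other cells (fibroblast, endothelial, blood, biliary), 8 were below 1 TPM in all 6 libraries and CD3E was at 0. Their sum was 148 to 183 TPM with DMSO and 498 to 541 TPM with 16'-DEC, mostly from KRT19, a keratin also present in some hepatoma lines (mean 152 and 477 TPM), and CD68 (mean 16.8 and 40.7 TPM). Its part in the results below was not tested.

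With 16'-DEC the complex I mRNAs did not move as a block. By limma with Benjamini-Hochberg adjustment over all tested genes (threshold 0.05), 22 of the 53 members rose, 19 fell and 12 did not pass. Over all 14275 genes, 22.7% were called higher and 48.9% lower, and the median log2 change was -0.31, against -0.10 for the members. The 38 nuclear subunits held most of the rises (21 higher, 12 lower, 5 not passed, median 0.25). Assembly factors (1 higher, 4 lower, 3 not passed, median -0.46) and mitochondrially encoded subunits (0 higher, 3 lower, 4 not passed, median -0.29) held few. As deposited, no member rose by 2-fold or more, and 4 fell by more than 2-fold. In a bulk library, fewer cells and less RNA per cell cannot be told apart.

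Because TPM is a share of the library, direction depends on what the rest of the library did. Median-of-ratios scaling over the genes above 0 in all libraries moved the median change of all tested genes up by 0.44 on the log2 scale. Under it 35 members were higher and 7 lower, against a background of 43.5% higher and 32.4% lower. The sizes moved as well. Rises of more than 2-fold then included NDUFA13 (log2 change 1.41) and NDUFA9 (1.32). Of the 4 falls of more than 2-fold as deposited, NDUFA5 (-2.24) and NDUFAF4 (-1.23) stayed so. NDUFS4 (-0.94) and NDUFB3 (-0.64) did not. Transcript GC content also moved with the change across the whole table, as described further on. After a spline adjustment for GC content and length, which moved the median up by 0.31, 27 members were higher and 7 lower, where 34.5% and 31.7% of the 13291 genes with values were. The members called in the same direction under all the alternatives run were 15 of the 22 that rose and 4 of the 19 that fell. The 15 include NDUFA1, NDUFA2, NDUFA9, NDUFA11, NDUFA13, NDUFB7, NDUFB8, NDUFB9, NDUFB10, NDUFB11, NDUFS3, NDUFS6, NDUFS8 and NDUFV3, and the 4 were NDUFA5, NDUFS4, NDUFB3 and NDUFAF4.

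**Figure D1:**
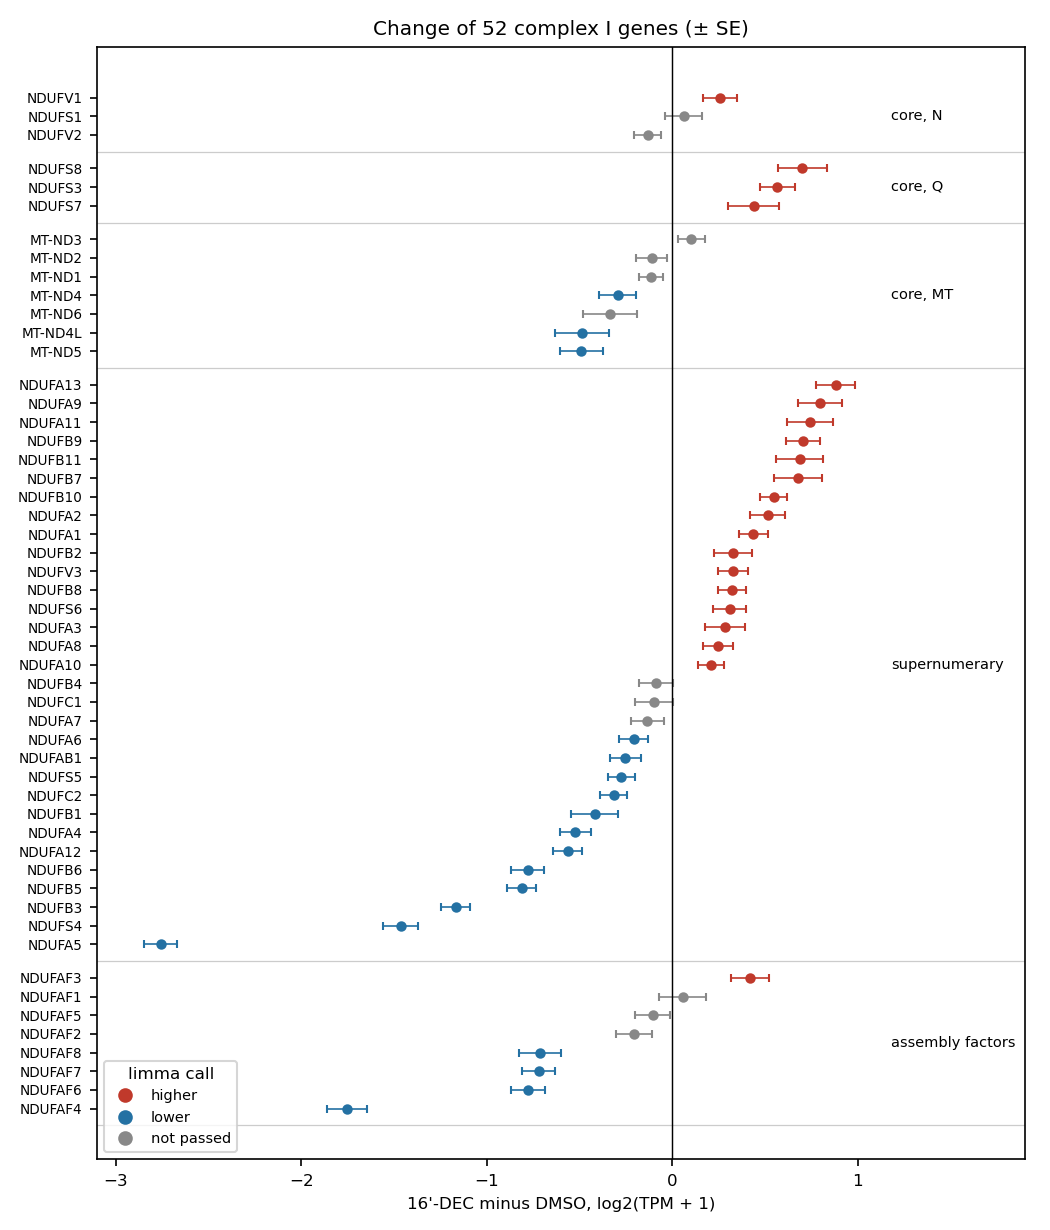
Change of 52 of the members, 16'-DEC minus DMSO, on the log2(TPM + 1) scale (horizontal axis), with bars of 1 standard error, grouped by role and coloured by the limma call. Of those drawn, 21 lie to the right as called higher and 19 to the left as called lower, with NDUFA5 farthest left at -2.76; 23 of all 53 members change sign between TPM as deposited and at least 1 of median-of-ratios scaling, quantile normalization and the GC and length adjustment.

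The promoters of 4 members are shown because they cover a core and a supernumerary subunit that rose and a supernumerary subunit and an assembly factor that fell, and because they hold letters bound by factors known for respiratory genes. Each run of 300 bases (250 before the start and 50 after it, RefSeq, build GRCh38.p14) is read 5′ to 3′ on the gene's own strand, in lower case. Capitals mark CCGGAAG (ETS family, which includes GABP) or AAGATGGCG (YY1) on either strand.
NDUFS3 (chr11:47578824-47579123, + strand): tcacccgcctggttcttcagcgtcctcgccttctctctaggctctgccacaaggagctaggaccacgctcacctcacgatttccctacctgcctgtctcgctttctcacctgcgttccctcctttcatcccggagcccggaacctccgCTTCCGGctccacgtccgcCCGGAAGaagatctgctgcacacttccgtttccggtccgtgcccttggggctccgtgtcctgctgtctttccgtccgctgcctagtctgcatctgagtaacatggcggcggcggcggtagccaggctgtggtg
NDUFA13 (chr19:19515975-19516274, + strand): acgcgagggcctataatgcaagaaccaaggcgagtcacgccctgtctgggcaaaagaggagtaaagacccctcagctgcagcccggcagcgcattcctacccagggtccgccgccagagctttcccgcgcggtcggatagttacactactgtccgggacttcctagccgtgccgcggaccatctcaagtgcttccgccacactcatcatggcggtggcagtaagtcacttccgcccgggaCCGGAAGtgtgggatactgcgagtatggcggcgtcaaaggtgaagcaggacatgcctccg
NDUFS4 (chr5:53560389-53560688, + strand): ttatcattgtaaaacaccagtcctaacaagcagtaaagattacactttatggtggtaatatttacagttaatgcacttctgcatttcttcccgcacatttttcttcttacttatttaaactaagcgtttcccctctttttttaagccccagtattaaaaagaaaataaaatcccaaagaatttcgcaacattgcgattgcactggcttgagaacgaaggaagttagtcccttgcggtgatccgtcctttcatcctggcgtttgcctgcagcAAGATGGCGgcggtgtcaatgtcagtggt
NDUFAF4 (chr6:96897842-96898141, - strand): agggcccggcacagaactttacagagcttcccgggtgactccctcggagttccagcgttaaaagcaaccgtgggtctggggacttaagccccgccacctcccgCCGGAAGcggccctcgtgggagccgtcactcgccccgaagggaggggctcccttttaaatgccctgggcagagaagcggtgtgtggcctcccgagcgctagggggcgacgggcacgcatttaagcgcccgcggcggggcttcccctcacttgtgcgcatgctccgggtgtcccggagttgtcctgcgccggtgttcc

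Promoter entries were matched by symbol for 39 of the 46 nuclear members, with 1 entry kept per symbol. The entry of NDUFA5 (chr7:123601602-123601901), which held none of the letters, lies outside the span of the gene measured here (chr7:123536997-123558255). GCGCANGCG (NRF1) was searched on both strands beside those marked above. CCGGAAG stood in 6 of the 39 member promoters (15.4%) and in 10.3% of all 35116 promoters in the table. GCGCANGCG stood in 10 (25.6%) against 7.52%, and AAGATGGCG in 5 (12.8%) against 1.75%. The 35116 were not cut to 1 entry per symbol or to expressed genes, nor matched to the members for GC content. The shares are therefore not a like comparison. Of the 39, 19 held at least 1 of the sets. Among the 20 promoters of members that rose, 4 held CCGGAAG, 6 GCGCANGCG and 2 AAGATGGCG. Among the 11 of members that fell the numbers were 1, 2 and 2. The letters thus occur in promoters of both, as in NDUFS3 and NDUFAF4 above. These are matches of letters and not binding sites. Of the factors, NRF1 was at 8.15, 7.06 and 9.16 TPM with DMSO and 8.11, 7.701 and 6.78 TPM with 16'-DEC (log2 change -0.093 ± 0.12 SE, adjusted p = 0.488), and the groups overlapped. YY1 was at 96.05, 103 and 88.6 TPM with DMSO and 52.8, 55.5 and 50.01 TPM with 16'-DEC (log2 change -0.85 ± 0.082 SE, adjusted p = 1.94e-05). GABPA, the DNA-binding subunit of GABP, was at 20.9, 19.2 and 19.8 TPM with DMSO and 4.53, 3.85 and 3.63 TPM with 16'-DEC (log2 change -2.07 ± 0.099 SE, adjusted p = 3.36e-07).

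The 7 nuclear core subunits carry the electrons. As deposited, 5 of the 7 rose and none fell (22.7% of all genes rose), with a median log2 change of 0.37, and their summed level went from 739.5 ± 30.3 TPM to 821 ± 19.3 TPM (SD, n = 3). The 3 subunits of the Q module described here rose, and without 16'-DEC replicate 3 the number of the 7 called higher was 3. The ± after a log2 change is the limma standard error, and the scale is log2(TPM + 1) throughout.

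NDUFS8, which holds a pair of iron-sulfur clusters, was at 32.2, 42.8 and 45.2 TPM with DMSO and 63.02, 60.2 and 72.7 TPM with 16'-DEC (log2 change 0.70 ± 0.13 SE, adjusted p = 0.00122). NDUFS3, a subunit of the Q module early in assembly, was at 66.2, 79.05 and 77.3 TPM with DMSO and 108, 103 and 119.8 TPM with 16'-DEC (log2 change 0.57 ± 0.093 SE, adjusted p = 0.000538). Neither gene's groups overlapped, and the lowest 16'-DEC library stood above the highest DMSO library in both. NDUFS7, which carries the last iron-sulfur cluster before ubiquinone, was at 29.9, 39.6 and 43.3 TPM with DMSO and 49.97, 46.6 and 56.1 TPM with 16'-DEC (log2 change 0.44 ± 0.14 SE, adjusted p = 0.0174). Its groups did not overlap either, but DMSO replicate 1 was the lowest library for all 3 genes. Without 16'-DEC replicate 3 the adjusted p of NDUFS7 was 0.0576, and after the GC and length adjustment its change was 0.20 (adjusted p = 0.0651). NDUFS8 and NDUFS3 kept their calls there, at 0.41 and 0.44.

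In the N module, 1 of 3 subunits passed as deposited. Under median-of-ratios scaling all 3 were called higher, as were 43.5% of all genes. NDUFV1, the flavoprotein that binds NADH and FMN, was at 52.2, 57.7 and 64.7 TPM with DMSO and 69.9, 66.4 and 72.5 TPM with 16'-DEC (log2 change 0.26 ± 0.091 SE, adjusted p = 0.0303). Its groups did not overlap, but the call was lost without DMSO replicate 1, DMSO replicate 2, 16'-DEC replicate 1 or 16'-DEC replicate 3 (adjusted p 0.0695 to 0.0905), and after the GC and length adjustment the change was -0.02. NDUFV2, its partner with an iron-sulfur cluster, was at 354, 374 and 335 TPM with DMSO and 312, 318 and 339 TPM with 16'-DEC (log2 change -0.13 ± 0.07 SE, adjusted p = 0.119). NDUFS1, the largest subunit, with several iron-sulfur clusters, was at 101, 94.4 and 102 TPM with DMSO and 106, 116 and 89.6 TPM with 16'-DEC (log2 change 0.063 ± 0.1 SE, adjusted p = 0.589). The groups overlapped for both, and 16'-DEC replicate 3 was the lowest library for NDUFS1. Under median-of-ratios scaling NDUFV2 was at 0.39 (limma adjusted p = 0.00544) and NDUFS1 at 0.59 (adjusted p = 0.000141). After the GC and length adjustment NDUFS1 was higher (1.12, adjusted p = 4.63e-06), a value that rests on a reference transcript of 11819 bases, the longest among the nuclear members.

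**Figure D2:**
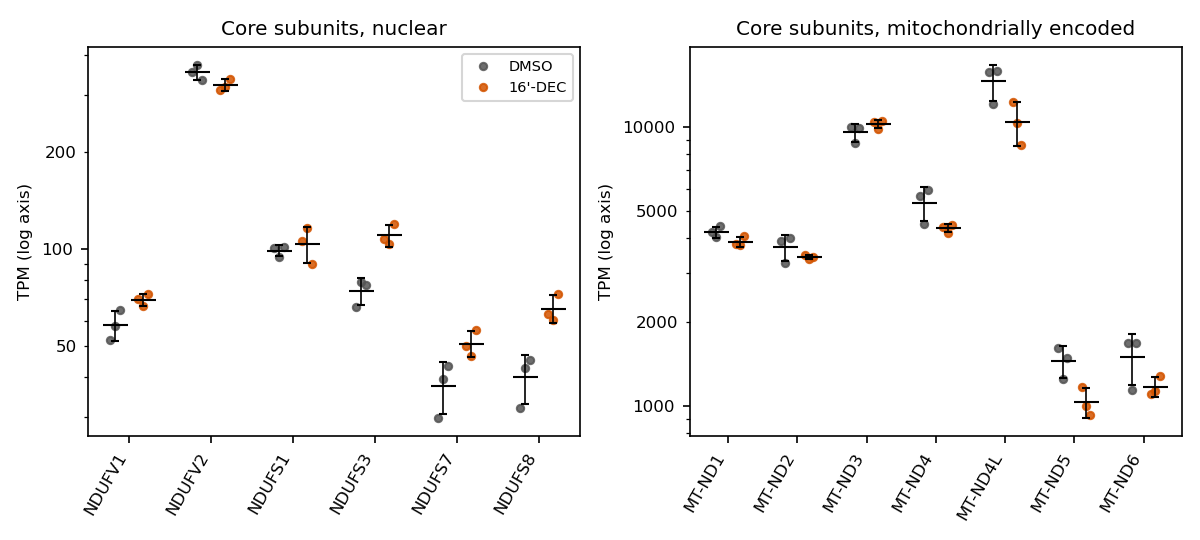
Level in each library of 6 nuclear core subunits (left) and the 7 mitochondrially encoded ones (right), in TPM on a log axis; points are libraries, the horizontal mark is the group mean and the bar is 1 SD (n = 3). NDUFS3, NDUFS7 and NDUFS8 stand higher in all 3 16'-DEC libraries than in any DMSO library, and MT-ND4 and MT-ND5 stand lower; the direction of both MT genes turns under median-of-ratios scaling.

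The 7 mitochondrially encoded subunits form the proton-pumping membrane arm and were the most abundant members. Their summed level was 40368 ± 4679 TPM with DMSO and 34541 ± 1850 TPM with 16'-DEC (SD, n = 3), or 4.04% and 3.45% of all TPM, and the single sums overlapped (34978 to 43387 and 33306 to 36668 TPM). As deposited 3 of the 7 fell and none rose, while 48.9% of all genes fell. Under median-of-ratios scaling none was called lower and 3 were called higher (MT-ND1 0.41, MT-ND2 0.42, MT-ND3 0.63), and after the GC and length adjustment MT-ND2, MT-ND3 and MT-ND6 were called higher. Quantile normalization called 6 of the 7 lower. The direction of these genes against the rest of the transcriptome therefore depended on the scaling.

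MT-ND5, an antiporter-like pump at the far end of the membrane arm, was at 1618, 1248 and 1484 TPM with DMSO and 1172, 1001 and 923 TPM with 16'-DEC (log2 change -0.49 ± 0.12 SE, adjusted p = 0.00454). MT-ND4, its neighbour pump, was at 5641, 4492 and 5935 TPM with DMSO and 4376, 4179 and 4455 TPM with 16'-DEC (log2 change -0.29 ± 0.1 SE, adjusted p = 0.028). For both genes the groups did not overlap, and DMSO replicate 2 was the lowest DMSO library. MT-ND4L, read from the same transcript as MT-ND4, was at 15722, 12083 and 15938 TPM with DMSO and 12339.9, 10348 and 8619.8 TPM with 16'-DEC (log2 change -0.49 ± 0.15 SE, adjusted p = 0.0146). MT-ND4L overlapped between groups, since DMSO replicate 2 was below 16'-DEC replicate 1. Leaving out DMSO replicate 1 raised its adjusted p to 0.0587, and leaving out 16'-DEC replicate 3 raised it to 0.0595, so both ended the call. The call of MT-ND4 was lost without any 1 library other than DMSO replicate 2 (0.0551 to 0.0934). The number of the 7 called lower was 1 to 5 over the 6 fits that leave out a library, 1 without DMSO replicate 1 or without 16'-DEC replicate 3 and 5 without DMSO replicate 2.

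MT-ND6, the one subunit encoded on the light strand, was at 1682, 1137 and 1674 TPM with DMSO and 1099, 1129 and 1284 TPM with 16'-DEC (log2 change -0.34 ± 0.15 SE, adjusted p = 0.0676). It passed without DMSO replicate 2 (adjusted p = 0.00112). Since no strand marking is described, its reads cannot be told apart from those of transcripts of the opposite strand. MT-ND1, at the junction of both arms, was at 4186, 4025 and 4405 TPM with DMSO and 3799.6, 3771 and 4069 TPM with 16'-DEC (log2 change -0.12 ± 0.065 SE, adjusted p = 0.139). MT-ND2, an antiporter-like pump, was at 3894, 3257 and 3995 TPM with DMSO and 3489.7, 3372 and 3416 TPM with 16'-DEC (log2 change -0.11 ± 0.084 SE, adjusted p = 0.261), and passed without DMSO replicate 2 (adjusted p = 0.0279). MT-ND3, next to the quinone site, was at 9996, 8737 and 9956 TPM with DMSO and 10391, 9849 and 10540.2 TPM with 16'-DEC (log2 change 0.10 ± 0.073 SE, adjusted p = 0.228). These 4 genes overlapped between groups. MT-ND4L (297 bases) and MT-ND3 (346 bases) are short, so their high TPM rests on few bases.

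A measure that the rest of the library cannot move is the share of each gene in the summed TPM of the 13 mitochondrially encoded mRNAs. In limma on this share MT-ND5 fell from 1.61 ± 0.073% to 1.19 ± 0.14% (log2 change -0.44 ± 0.090 SE, adjusted p = 0.00201) and MT-ND4 from 5.93 ± 0.27% to 5.02 ± 0.066% (-0.24 ± 0.059, adjusted p = 0.00524). MT-ND4L fell from 16.1 ± 0.74% to 12.1 ± 2.10% (-0.43 ± 0.12, adjusted p = 0.00909) and MT-ND6 from 1.65 ± 0.18% to 1.35 ± 0.11% (-0.28 ± 0.097, adjusted p = 0.0267). For MT-ND5, MT-ND4 and MT-ND4L the highest 16'-DEC library was below the lowest DMSO library. The shares of MT-ND6 overlapped, at 1.44% in DMSO replicate 2 and 1.46% in 16'-DEC replicate 3. MT-ND3 went the other way, from 10.7 ± 0.36% to 11.9 ± 0.13% (0.16 ± 0.056, adjusted p = 0.0304). MT-ND1 (4.70 and 4.49%) and MT-ND2 (4.13 and 3.96%) did not pass. Among the 6 mRNAs outside complex I, MT-CO2, a core subunit of complex IV, rose from 12.4 ± 0.90% to 18.7 ± 0.97% (0.59 ± 0.072, adjusted p = 8.07e-05), and as deposited it was the one of the 6 that passed (log2 change 0.54, adjusted p = 0.000107). Shares sum to 100%, so a rise of 1 mRNA lowers the others.

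**Figure D3:**
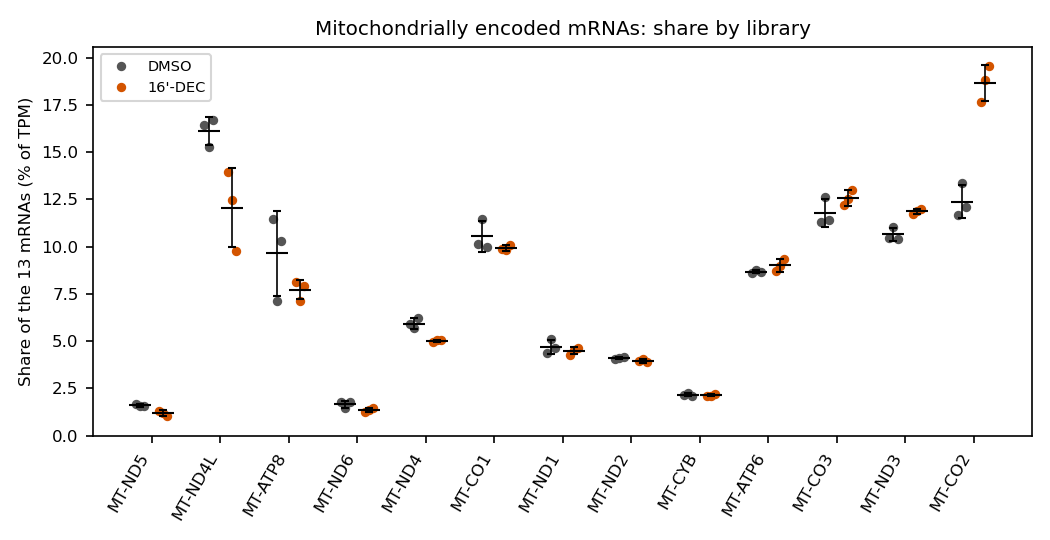
Share of each of the 13 mitochondrially encoded mRNAs in their summed TPM (vertical axis, %), by library (points), with the group mean and 1 SD (n = 3), ordered by the log2 change of the TPM share. MT-ND5, MT-ND4L and MT-ND4 lie lower in all 3 16'-DEC libraries, while MT-CO2 lies at 17.6 to 19.6% against 11.7 to 13.4% with DMSO.

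The 31 supernumerary subunits moved both ways, 16 higher, 12 lower and 3 not passed, with a median log2 change of 0.21, where 22.7% of all genes were higher and 48.9% lower. Median-of-ratios scaling gave 21 higher and 5 lower, and the GC and length adjustment 18 and 4. Their summed level was 4965 ± 194 TPM with DMSO and 4794 ± 270 TPM with 16'-DEC. The NDUFA family had 8 higher, 5 lower and 1 not passed (median 0.23), and the NDUFB family, which lies in the membrane arm, had 6, 4 and 1 (median 0.32). Subunits of all 38 nuclear genes covered a wide range of levels, from NDUFV3 (12.7 to 14.2 TPM with DMSO, 16.7 to 17.6 TPM with 16'-DEC) to NDUFS5 in each library. The SD of their log2 TPM was 1.21 to 1.32 with DMSO and 1.21 to 1.24 with 16'-DEC.

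NDUFA5, a small subunit of the matrix arm (ENSG00000128609, chr7:123536997-123558255, GRCh38, GENCODE 29), had the lowest log2 change of the 53. It was at 179, 205 and 172 TPM with DMSO and 28.2, 25.5 and 25.9 TPM with 16'-DEC, a 6.99-fold fall (log2 change -2.76 ± 0.088 SE, adjusted p = 1.17e-07). NDUFS4 (ENSG00000164258, chr5:53560633-53683340), at the base of the N module and mutated in Leigh syndrome, was at 199, 195 and 169.6 TPM with DMSO and 61.3, 67.2 and 73.8 TPM with 16'-DEC, a 2.79-fold fall (log2 change -1.46 ± 0.095 SE, adjusted p = 1.58e-06). The DMSO and 16'-DEC values of both were far apart compared with the spread within a group. NDUFB3 (ENSG00000119013, chr2:201071433-201085750), of the distal membrane arm, was at 387, 385 and 339 TPM with DMSO and 159, 161 and 172 TPM with 16'-DEC, a 2.26-fold fall (log2 change -1.17 ± 0.077 SE, adjusted p = 1.75e-06). NDUFB5, of the same arm, was at 134, 128 and 124 TPM with DMSO and 66.8, 74.8 and 77.5 TPM with 16'-DEC (log2 change -0.81 ± 0.079 SE, adjusted p = 2.03e-05). The groups did not overlap for either, yet NDUFB5 was called higher after the GC and length adjustment (0.25, adjusted p = 0.00586), where NDUFA5, NDUFS4 and NDUFB3 stayed lower at -1.37, -0.69 and -0.57.

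NDUFA13 (ENSG00000186010, chr19:19515736-19529054), also known as GRIM-19, had the highest log2 change. It was at 166, 195 and 215 TPM with DMSO and 345, 329.8 and 385 TPM with 16'-DEC, a 1.84-fold rise (log2 change 0.88 ± 0.1 SE, adjusted p = 6.98e-05). NDUFA9 (ENSG00000139180, chr12:4649095-4694317), which binds NADPH near the quinone site, was at 51.7, 59.98 and 72.97 TPM with DMSO and 112, 106 and 102 TPM with 16'-DEC (log2 change 0.80 ± 0.12 SE, adjusted p = 0.000296). In both the lowest 16'-DEC library exceeded the highest DMSO library. NDUFA11, which joins parts of the membrane arm, was at 88.5, 118 and 124 TPM with DMSO and 189, 173 and 188 TPM with 16'-DEC (log2 change 0.74 ± 0.12 SE, adjusted p = 0.000544). NDUFB9, of the distal membrane arm, was at 187, 210.4 and 233 TPM with DMSO and 334, 327 and 363 TPM with 16'-DEC (log2 change 0.70 ± 0.092 SE, adjusted p = 0.000127). DMSO replicate 1 was the lowest library for all 4. All 4 stayed higher after the GC and length adjustment, with NDUFA9 at 1.64, which rests on a reference transcript of 8363 bases, NDUFA13 at 0.58, NDUFB9 at 0.61 and NDUFA11 at 0.45.

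The other supernumerary subunits that rose did so by less. NDUFB11, NDUFB7, NDUFB10 and NDUFA2 had log2 changes of 0.69, 0.68, 0.55 and 0.52, with groups that did not overlap. NDUFA1, a small membrane arm subunit encoded on the X chromosome, went from 354 ± 20.8 TPM to 480.4 ± 36.8 TPM (log2 change 0.44 ± 0.079 SE, adjusted p = 0.000955). The remaining 7 (NDUFB2, NDUFV3, NDUFB8, NDUFS6, NDUFA3, NDUFA8 and NDUFA10) had log2 changes of 0.21 to 0.33, with adjusted p-values of 0.0428 or less. Of these 7, NDUFA3 alone overlapped between groups. The call of NDUFA3 was lost in 5 of the 6 fits without a library (adjusted p 0.0554 to 0.127; it held without 16'-DEC replicate 2). NDUFA10 lost its call when replicate 1 or replicate 2 of either group was left out (0.0505 to 0.0794). NDUFA8 lost it without DMSO replicate 1 (0.0557) and NDUFB2 without 16'-DEC replicate 3 (0.0529).

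Among the supernumerary subunits that fell by less, NDUFB6, of the membrane arm, was at 44.3, 50.2 and 41.1 TPM with DMSO and 25.9, 24.9 and 26.7 TPM with 16'-DEC (log2 change -0.78 ± 0.091 SE, adjusted p = 6.14e-05). NDUFA12, of the matrix arm, went from 204 ± 8.78 TPM to 138 ± 10.9 TPM (log2 change -0.56 ± 0.079 SE, adjusted p = 0.000197). NDUFA4, now assigned to complex IV but kept by its symbol, was at 90.04, 91.8 and 81.8 TPM with DMSO and 58.05, 58.2 and 66.5 TPM with 16'-DEC (log2 change -0.52 ± 0.085 SE, adjusted p = 0.000491). None of the 3 overlapped between groups, but after the GC and length adjustment NDUFB6 was at 0.12 and NDUFA12 at -0.16, neither passing, and NDUFA4 was called higher at 0.52. NDUFS5, the most abundant nuclear member, was at 682, 652 and 646 TPM with DMSO and 511, 539 and 590.1 TPM with 16'-DEC (log2 change -0.27 ± 0.072 SE, adjusted p = 0.00795). NDUFC2, the next in abundance, was at 484, 538 and 482 TPM with DMSO and 384, 402 and 420.2 TPM with 16'-DEC (log2 change -0.32 ± 0.072 SE, adjusted p = 0.00372). These falls, too, came with groups that did not overlap, and both turned positive under median-of-ratios scaling (0.25 and 0.21).

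NDUFB1, of the membrane arm, was at 133, 147 and 115 TPM with DMSO and 89.3, 90.1 and 117 TPM with 16'-DEC (log2 change -0.42 ± 0.13 SE, adjusted p = 0.0158) and overlapped between groups. NDUFAB1, the mitochondrial acyl carrier protein, was at 280.1, 321 and 279 TPM with DMSO and 233, 241 and 264 TPM with 16'-DEC (log2 change -0.25 ± 0.083 SE, adjusted p = 0.0221). NDUFA6, a matrix arm subunit that binds the acyl carrier protein, was at 99.7, 99.5 and 87.7 TPM with DMSO and 80.99, 83.1 and 83.5 TPM with 16'-DEC (log2 change -0.21 ± 0.076 SE, adjusted p = 0.0345). The last pair did not overlap, but the median-of-ratios scaling called both higher (0.27 and 0.31). All 3 calls were lost in fits without 1 library: NDUFB1 and NDUFAB1 without DMSO replicate 2, 16'-DEC replicate 1 or 16'-DEC replicate 2 (adjusted p 0.0547 to 0.0839), and NDUFA6 without those or DMSO replicate 1 (0.0701 to 0.104).

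Of the 3 supernumerary subunits that did not pass, NDUFA7, of the matrix arm, was at 28.9, 29.98 and 33.9 TPM with DMSO and 27.2, 27.1 and 29.8 TPM with 16'-DEC (log2 change -0.13 ± 0.089 SE, adjusted p = 0.2). NDUFC1, of the membrane arm, was at 55.9, 61.3 and 49.5 TPM with DMSO and 51.4, 47.3 and 56.7 TPM with 16'-DEC (log2 change -0.10 ± 0.1 SE, adjusted p = 0.406). NDUFB4, of the membrane arm as well, was at 167, 198 and 158 TPM with DMSO and 159.7, 158 and 172 TPM with 16'-DEC (log2 change -0.089 ± 0.093 SE, adjusted p = 0.411). All 3 overlapped between groups. NDUFA7 shares 89 exon bases with RPS28 on the opposite strand, a ribosomal protein gene at a mean of 437 TPM, and without strand marking reads there cannot be assigned.

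Of the 8 assembly factors, 4 fell and 1 rose as deposited, where 48.9% of all genes fell and 22.7% rose. Under median-of-ratios scaling 4 were higher and 2 lower, with a median log2 change of 0.059, so their direction depended on the scaling. Their summed level went from 408 ± 25.1 TPM to 262 ± 16.1 TPM, a ratio of 0.642. NDUFAF4 carried much of that difference, and without it, a choice made after seeing the data, the ratio of the other 7 was 0.788 (288 ± 11.4 to 227 ± 13.7 TPM). The ratio of the 38 nuclear subunits was 0.984. NDUFAF4 (ENSG00000123545, chr6:96889313-96897881), which with NDUFAF3 helps to build the Q module, was at 125, 131 and 102 TPM with DMSO and 31.9, 37.1 and 34.97 TPM with 16'-DEC, a 3.45-fold fall (log2 change -1.75 ± 0.11 SE, adjusted p = 1.13e-06). Its partner NDUFAF3 was the one that rose, at 8.75, 10.6 and 11.2 TPM with DMSO and 13.4, 14.01 and 14.3 TPM with 16'-DEC (log2 change 0.42 ± 0.1 SE, adjusted p = 0.00573). The partners therefore went in opposite directions, with no overlap between groups in either. NDUFAF3 shares 527 exon bases with DALRD3 on the opposite strand, a gene at a mean of 11.1 TPM. Without strand marking, reads there cannot be assigned. After the GC and length adjustment NDUFAF4 was at -0.34 (adjusted p = 0.0123) and NDUFAF3 at 0.10 (adjusted p = 0.213).

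NDUFAF6, needed for the module that contains MT-ND1, was at 41.3, 41.3 and 37.3 TPM with DMSO and 20.6, 23.3 and 24.9 TPM with 16'-DEC (log2 change -0.78 ± 0.093 SE, adjusted p = 7.19e-05). NDUFAF7, a mitochondrial protein arginine methyltransferase, was at 26.99, 27.2 and 25.8 TPM with DMSO and 15.2, 17.5 and 14.8 TPM with 16'-DEC (log2 change -0.72 ± 0.089 SE, adjusted p = 8.64e-05). NDUFAF8, which works with NDUFAF5, was at 40.8, 51.2 and 51.5 TPM with DMSO and 29.1, 25.8 and 31.4 TPM with 16'-DEC (log2 change -0.71 ± 0.11 SE, adjusted p = 0.000468). The groups did not overlap for any of the 3. NDUFAF8 fell further after the GC and length adjustment (-0.997, adjusted p = 1.5e-05), whereas NDUFAF7 was at 0.041 (adjusted p = 0.534). Under median-of-ratios scaling NDUFAF6 and NDUFAF8 were at -0.27 and -0.20 and did not pass.

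NDUFAF2, a late factor that precedes the N module, was at 114, 124 and 103 TPM with DMSO and 88.2, 102 and 104 TPM with 16'-DEC (log2 change -0.21 ± 0.096 SE, adjusted p = 0.081) and passed only without DMSO replicate 3 among the fits that leave out a library (adjusted p = 0.0389). NDUFAF5, which hydroxylates an arginine of NDUFS7, was at 44.2, 38.3 and 38.7 TPM with DMSO and 34.9, 41.2 and 36.5 TPM with 16'-DEC (log2 change -0.10 ± 0.094 SE, adjusted p = 0.341). NDUFAF1, a factor of the membrane arm, was at 8.67, 8.698 and 12.1 TPM with DMSO and 9.98, 10.3 and 10.1 TPM with 16'-DEC (log2 change 0.056 ± 0.13 SE, adjusted p = 0.71). The 3 overlapped between groups, and DMSO replicate 3 set the upper value of NDUFAF1. NDUFAF5 was called higher after the GC and length adjustment at 1.11, with a reference transcript of 5529 bases.

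Across the 46 nuclear members the change followed the GC content of the transcript, measured on 1 reference transcript per gene. Spearman's rho was 0.70 and Pearson's r 0.69 (n = 46 genes, which share the same 6 libraries). Over all 13291 tested genes with a value, rho was 0.68. Transcript length had a rho of -0.055 with the change among the members. The median GC content was 54.5% in the 22 nuclear members that rose, 44.2% in the 16 that fell and 45.8% in the 8 that did not pass. Of the 20 members with 50% GC or more, 18 rose and 1 fell, and of the 26 below 50%, 4 rose and 15 fell. Of all tested genes, 22.7% rose and 48.9% fell. These shares were not split by GC content, so the counts cannot be set against genes of similar GC content. After the adjustment rho among the members was 0.088. The adjustment removes the relation to GC content over all genes by its design, so a low value is built in.

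Member and background medians can be read side by side within a band of GC content. Below 40% GC, NDUFA5 and NDUFAF4 had a median change of -2.26, and the 1968 tested genes of that band -1.46. From 40 to 45% the 12 members had -0.62 and all genes -0.86. From 45 to 50% the 12 members had -0.21 and all genes -0.33. From 50 to 55% all 8 members rose, with a median of 0.40 where that of all genes was 0.034. From 55 to 60% the 4 members had 0.27 and all genes 0.22. The share of all genes called higher was not counted by band. At 60% or more 7 of 8 rose, with 0.68 against 0.27. NDUFAF8, at 60.2% GC, was the 1 that fell there. Below 50% GC, 4 members rose: NDUFA9 (43.6%), NDUFB2 (44.96%), NDUFA10 (47.4%) and NDUFV3 (48.2%). These genes were picked out after their values were seen.

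**Figure D4:**
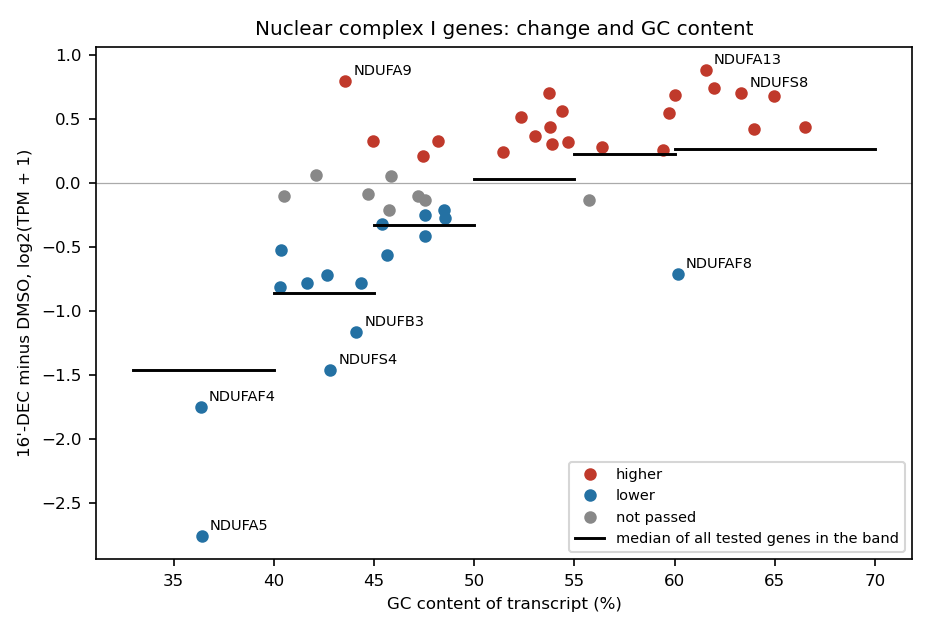
Change of the 46 nuclear members (vertical axis, 16'-DEC minus DMSO, log2(TPM + 1)) against the GC content of the reference transcript (horizontal axis, %), coloured by the limma call; black lines are medians of all tested genes in each GC band. The members climb from -2.76 for NDUFA5 at 36.4% GC to 0.88 for NDUFA13 at 61.5% GC, and the black medians climb with them.

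The adjustment took away many of the falls and few of the rises, and the whole table moved the same way. Of all tested genes, 48.9% were called lower before it (n = 14275) and 31.7% after it (n = 13291). Those called higher were 22.7% before and 34.5% after. Of the 19 members that fell, 6 stayed lower, 11 no longer passed and 2 (NDUFB5 and NDUFA4) were called higher. Of the 22 that rose, 18 stayed higher and 4 (NDUFV1, NDUFS7, NDUFA3 and NDUFAF3) no longer passed. Of the 12 that had not passed, 7 were called higher and NDUFA7 was called lower (-0.31, adjusted p = 0.00267). What the relation to GC content comes from was not tested.

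**Figure D5:**
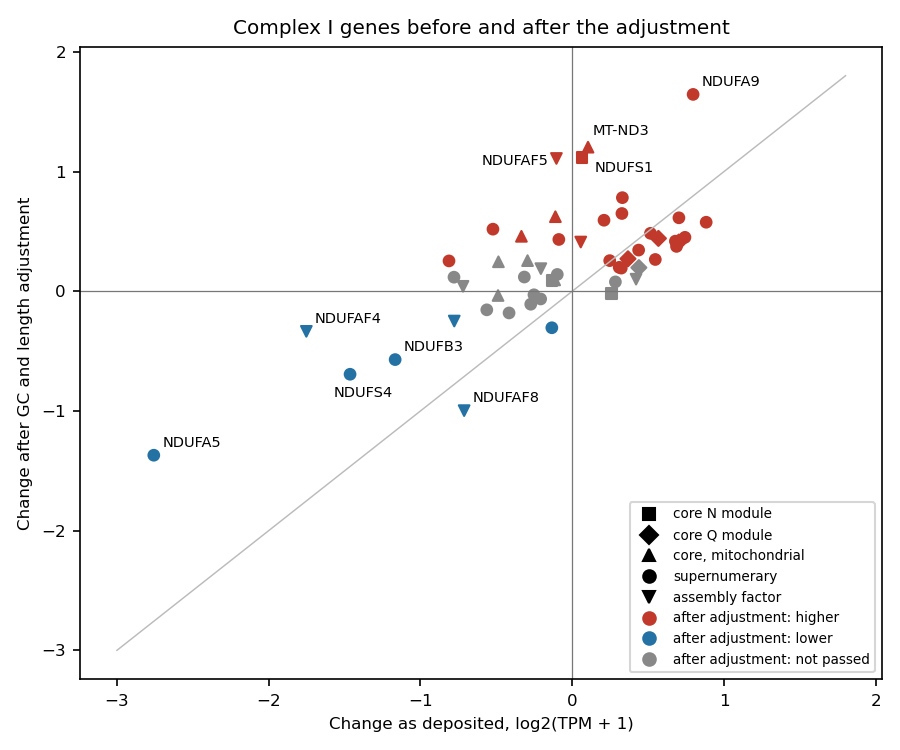
Change of the 53 members as deposited (horizontal axis, log2(TPM + 1)) and after the GC and length adjustment (vertical axis, log2 scale), with symbols for roles and colours for the call after the adjustment; the grey diagonal marks equal values. NDUFA5, NDUFS4, NDUFB3 and NDUFAF4 lie above the diagonal but stay below 0, and NDUFAF8 lies below the diagonal.

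The groups did not overlap for 38 of the 53 members (71.7%), close to the 75.3% of all tested genes, of which 22.7% were called higher and 48.9% lower. Variation within a group differed between members. The SD of NDUFA5 was 9.35% of its mean with DMSO and 5.62% with 16'-DEC, and that of NDUFS4 8.43% and 9.30%. It was 12.6% and 7.56% for NDUFAF4, 12.9% and 8.06% for NDUFA13 and 17.4% and 5.12% for NDUFA9. DMSO libraries varied most for NDUFAF1 (20.1% and 1.69%) and MT-ND6 (20.9% and 8.47%), and least for NDUFAF7 (2.80% and 9.24%).

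Other genes of complex I biology were read from lists by function. Of 12 further complex I assembly factors, 2 were higher, 5 lower and 5 not passed (median -0.088), where 22.7% of all genes were higher and 48.9% lower. ECSIT and TMEM126B belong to the same membrane arm assembly complex as NDUFAF1. ECSIT was at 16.8, 17.03 and 19.04 TPM with DMSO and 32.1, 30.8 and 34.1 TPM with 16'-DEC (log2 change 0.84 ± 0.085 SE, adjusted p = 2.55e-05), and TMEM126B was at 128, 135 and 122 TPM with DMSO and 43.97, 50.2 and 50.6 TPM with 16'-DEC (log2 change -1.39 ± 0.083 SE, adjusted p = 9.87e-07), so these partners also went opposite ways without overlap. COA1 rose (0.34) and TMEM70, which helps to assemble complex I and ATP synthase, fell (-0.89). TMEM126B was at -0.033 after the GC and length adjustment. The list then had 6 higher and 1 lower, where 34.5% of all genes with values were higher and 31.7% lower.

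Of 21 genes of mitochondrial transcription and transcript handling, 13 fell, 3 rose and the other 5 missed the threshold; the median log2 change was -1.14, and over all tested genes 48.9% fell and 22.7% rose. TFAM, which packages mitochondrial DNA and starts its transcription, was at 128, 117 and 118 TPM with DMSO and 27.3, 27.4 and 21.4 TPM with 16'-DEC (log2 change -2.22 ± 0.11 SE, adjusted p = 3.25e-07). TRMT10C, a subunit of mitochondrial RNase P, was at 60.6, 63.8 and 55.1 TPM with DMSO and 13.4, 15.3 and 15.9 TPM with 16'-DEC (log2 change -1.94 ± 0.095 SE, adjusted p = 3.64e-07). HSD17B10, another subunit of the same enzyme, rose (0.90), as did ELAC2, which trims the other end of mitochondrial tRNAs (0.59). After the GC and length adjustment 7 of the 21 were higher and 9 lower, with TFAM at -0.79 and TRMT10C at -0.77. The median log2 change of the 7 mitochondrially encoded complex I mRNAs was -0.29 as deposited, a sign that turned under median-of-ratios scaling and under the GC and length adjustment.

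Of 9 regulators of nuclear respiratory genes, 7 passed the filter on low values (PPARGC1B and ESRRG did not). Of these 7, 1 rose, 4 fell and 2 did not pass, where 22.7% of all tested genes rose and 48.9% fell. PPARGC1A, a coactivator of mitochondrial genes, was at 19.5, 15.99 and 18.5 TPM with DMSO and 4.58, 4.26 and 3.17 TPM with 16'-DEC (log2 change -1.93 ± 0.13 SE, adjusted p = 2.14e-06). ESRRA, a nuclear receptor that PPARGC1A binds, was at 19.4, 22.7 and 22.2 TPM with DMSO and 30.5, 30.6 and 30.6 TPM with 16'-DEC (log2 change 0.50 ± 0.084 SE, adjusted p = 0.000656). GABPA, given above, fell with PPARGC1A. After the GC and length adjustment the 3 were at -0.71, 0.18 and -0.50.

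A list of 42 nuclear genes of complexes II to V gave 22 higher, 12 lower and 8 not passed, with a median of 0.18. The 38 of complex I, NDUFA4 among them, gave 21, 12 and 5, with a median of 0.25. Of all genes, 22.7% were higher and 48.9% lower. The 42 include CYCS, the electron carrier cytochrome c, and ATP5IF1, an inhibitor of ATP synthase, which are not subunits. Both were called lower (log2 change -1.28 and -0.61). Median-of-ratios scaling gave 30 of the 42 higher and 6 lower, and the GC and length adjustment 26 and 7. Their summed level was 12594 ± 229 TPM with DMSO and 12222 ± 486 TPM with 16'-DEC. UQCRC1 (complex III) and COX4I1 (complex IV) rose by 1.02 and 0.80 on the log2 scale, and UQCRB (complex III) and ATP5F1E (ATP synthase) fell by 2.22 and 1.54. Both lists held members that moved in opposite directions, and no difference between them was tested.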

How the data were processed

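RNA-seq was made from 6 Huh7 libraries, 3 per group as their titles give it. As stated per the labels' protocols, poly(A) RNA was isolated with oligo(dT) beads, fragmented, copied with random primers and amplified; strand is not mentioned. What the authors deposited is a single TPM table. HISAT2 2.0.1, HTSeq 0.6.1, cutadapt 1.9.1 and DESeq2, and the build GRCh38, are named per the submitters' processing notes, with no role. The annotation used, and thus each gene's length, is not given in the sources used here. Identical values made up at most 0.329% of any pair of libraries, and all 6 were kept.

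A gene entered the test if its mean reached 1 TPM. Values on the log2(TPM + 1) scale were fitted by limma 3.58.1 (R 4.3.3, 2-sided, mean trend), with Benjamini-Hochberg adjustment over all 14275 and a threshold of 0.05. The scale understates changes of low genes. All adjusted p-values are from limma, refitted on the whole table under each alternative. The GC and length adjustment removed a spline (5 df) fitted over genes with a GENCODE 29 transcript (93.1%), per library. It also gave every library the same mean over these genes. Scripts were tested on simulated data. The members and lists were chosen with earlier results of these data known. Values by library are given for the core subunits, for the largest called changes and highest levels among supernumerary subunits and assembly factors, and for members whose direction differs between scalings; of other lists, for the pair of largest called changes each way. The values of 1 core subunit are not reported here. Alternatives were pseudocounts, filters, scalings, no mean trend, a replicate block and leaving out each library.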

Additional observations from a re-analysis of the deposited data

How the results depend on the processing

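Median-of-ratios scaling gave 35 members higher and 7 lower, and the GC and length adjustment 7 lower (6 with the replicate block). Under median-of-ratios scaling these members turned positive on the log2 scale: NDUFAF2 0.32, NDUFAF5 0.41, NDUFV2 0.39, MT-ND5 0.038, MT-ND4L 0.041, MT-ND6 0.19, MT-ND4 0.23, MT-ND1 0.41, MT-ND2 0.42, NDUFB1 0.11, NDUFC2 0.21, NDUFS5 0.25, NDUFAB1 0.27, NDUFA6 0.31, NDUFA7 0.38, NDUFC1 0.42 and NDUFB4 0.44; so did NDUFC2-KCTD14, which is not a member (0.088). After the GC and length adjustment, with or without the block, NDUFAF7 was at 0.041, NDUFAF2 at 0.19, NDUFAF5 at 1.11, NDUFV2 at 0.091, NDUFV1 at -0.02, MT-ND4L at 0.25, MT-ND6 at 0.46, MT-ND4 at 0.26, MT-ND1 at 0.094, MT-ND2 at 0.62, NDUFB5 at 0.25, NDUFB6 at 0.12, NDUFA4 at 0.52, NDUFC2 at 0.12, NDUFC1 at 0.14 and NDUFB4 at 0.43. Quantile normalization turned NDUFAF2 (0.0099), NDUFAF5 (0.20), MT-ND3 (-0.076), NDUFA6 (0.014), NDUFA7 (0.22), NDUFC1 (0.14), NDUFB4 (0.016) and NDUFC2-KCTD14 (0.074). The cause was not tested. Fits without 1 library gave 18 to 21 members higher and 15 to 19 lower, and NDUFAF1 ranged from -0.018 to 0.20, NDUFB4 from -0.15 to 0.0044 and NDUFS1 from -0.020 to 0.17. With no filter on low values (more genes tested) 18 members were higher and 14 lower, and all 53 kept direction and call with pseudocounts of 0.1 and 5 TPM. With the replicate number as a block 20 members were higher and 19 lower. Deviations of same-numbered libraries from their group means had correlations of 0.094, -0.18 and -0.073. Those of differently numbered libraries ran from -0.196 to 0.274. With 3 libraries per group these values cannot settle whether a number marks a shared culture or batch, and the labels do not say. TPM keeps no depth, which limits what can be said of low members.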

Other observations

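A pair of related symbols outside the rule also moved. NDUFA4L2, a paralogue of NDUFA4 known from hypoxia, was at 3.505, 3.28 and 4.41 TPM with DMSO and 8.19, 6.59 and 6.95 TPM with 16'-DEC (log2 change 0.80 ± 0.13 SE, adjusted p = 0.000428 by limma), with no overlap between groups. NDUFC2-KCTD14, a readthrough of NDUFC2, was at 16.6, 11.1 and 12.7 TPM with DMSO and 9.999, 9.91 and 9.66 TPM with 16'-DEC (log2 change -0.40 ± 0.13 SE, adjusted p = 0.0253 by limma), a call lost without DMSO replicate 1 or any 1 of the 16'-DEC libraries (adjusted p 0.0506 to 0.065).

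Pseudogene rows were present for 28 members, and their summed TPM was at most 0.345% of the member's own level with DMSO, for NDUFAF4. Of the members, 22 share exon bases with another gene of at least 1 TPM, 16 of them with one on the opposite strand. NDUFS3 shares 721 bases with PTPMT1 on the same strand. On the opposite strand NDUFB9 shares 677 bases with MTSS1 and 187 bases with TATDN1.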
